A study of Mus musculus with 12 samples.

Results

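The genes described are 10 components of lipopolysaccharide (LPS) recognition and Toll-like receptor (TLR) signalling, *Tlr4*, *Ly96*, *Cd180*, *Ly86*, *Tlr9*, *Myd88*, *Irak4*, *Irak1*, *Tnfaip3* and *Nfkbia*. They were chosen by symbol, with earlier results of these data known, and each was found once among the 55536 genes of the count table. RNA was sequenced from cultured splenic B cells of 3 control mice and 3 Pdap1-deficient mice, on a C57BL/6 background. Both genotypes carried a Cre that acts in B cells, and the Pdap1-deficient mice also carried floxed *Pdap1* alleles (Pdap1F/F). Each mouse gave 2 cultures of 48 h, both with 5 µg/ml LPS. One also held 5 ng/ml IL-4, which directs switching to IgG1 (LPS-IL-4), and the other 10 ng/ml BAFF plus 2 ng/ml TGFβ, which direct it to IgG2b (LPS-BAFF-TGFβ). The 12 libraries thus form 4 groups of 3. The labels name CH12, a B lymphoma line, as the cell line of every sample, while the study's methods and the description of the series give primary splenocyte cultures from mice; the latter was followed. The age of each mouse is not given in the sources used here. LPS was in every culture, so no value below measures the response to LPS itself.

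LPS is sensed at the B cell surface by TLR4 bound to its accessory protein MD-2, the product of *Ly96*. RP105, the product of *Cd180*, and its partner MD-1, the product of *Ly86*, form a related complex that is abundant on B cells and takes part in their response to LPS. TLR9 recognizes CpG DNA in endosomes. The adaptor MyD88 and the kinases IRAK4 and IRAK1 carry the signal of both TLR4 and TLR9 toward NF-κB, and IκBα (*Nfkbia*) and A20 (*Tnfaip3*) are inhibitors of NF-κB signalling whose own genes NF-κB induces.

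The stretches just before the transcription starts of *Nfkbia* and *Tnfaip3* are shown because these inhibitor genes, which are both known NF-κB targets, differed in opposite directions between the cultures. They come from the RefSeq promoter table on GRCm38.p6, which held windows for 8 of the 10 genes and none for *Tlr4* and *Ly96*. Each stretch is printed 5′ to 3′ on the gene's strand as the 250 bases before the start. The *Nfkbia* stretch is chr12:55492648-55492897 (minus strand) and the *Tnfaip3* stretch chr10:19015411-19015660 (minus strand); a longer *Tnfaip3* transcript in GENCODE starts at position 19015657, so most of that stretch lies within the annotated gene. Capitals mark matches, on either strand, to GGNATTTCC, a form of the κB site chosen after the windows had been read.
*Nfkbia*: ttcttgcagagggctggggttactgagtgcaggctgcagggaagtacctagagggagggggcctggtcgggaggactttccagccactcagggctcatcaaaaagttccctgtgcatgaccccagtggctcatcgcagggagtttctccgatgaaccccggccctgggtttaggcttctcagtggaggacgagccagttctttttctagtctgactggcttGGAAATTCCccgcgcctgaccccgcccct
*Tnfaip3*: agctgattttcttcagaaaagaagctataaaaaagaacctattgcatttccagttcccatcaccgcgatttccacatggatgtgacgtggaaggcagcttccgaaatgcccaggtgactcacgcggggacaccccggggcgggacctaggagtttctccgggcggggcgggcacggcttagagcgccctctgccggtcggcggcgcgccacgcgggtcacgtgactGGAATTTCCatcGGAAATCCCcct
*Nfkbia* held 1 match, 21 to 29 bases before the start on the opposite strand. *Tnfaip3* held 2, at 16 to 24 bases on the gene's strand and at 4 to 12 bases on the opposite strand. The stretch before a second start site of *Tnfaip3*, chr10:19011964-19012213, held 0 matches and is not printed. Of 32851 promoter stretches of the same length 1.06% held the motif. Because its form was chosen after the windows had been read, this share is no test of *Nfkbia* and *Tnfaip3*. Among the genes with a window, *Nfkbia* and *Tnfaip3* were those with a match. A match describes these letters and was not measured as a binding site.

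Total counts were between 4579793 and 15869143 in 11 libraries and 69500640 in the LPS-BAFF-TGFβ library of control mouse 1. Levels are given as counts relative to the library total, in CPM, with totals scaled by TMM. *Pdap1* stood between 80.3 and 199 CPM in the 6 control libraries and between 23.0 and 29.9 CPM in the 6 Pdap1-deficient libraries; its difference passed edgeR's quasi-likelihood test with LPS-IL-4 (log2 fold change −1.82 ± 0.11 SE, adjusted p = 3.52e-05) and did not with LPS-BAFF-TGFβ (−2.33 ± 0.36, adjusted p = 0.0929), where it passed without control mouse 1 (−1.85, adjusted p = 4.9e-06) or control mouse 2 (−2.57, adjusted p = 0.0227), and also by DESeq2 (adjusted p = 1.96e-14), with the replicate number as a block (0.0347) and with all 12 libraries in one fit. The 8 B cell markers examined were counted in every library. Markers of monocytes, macrophages and neutrophils stood apart in Pdap1-deficient mouse 2: the 8 genes summed to 312 CPM with LPS-IL-4 and 549 CPM with LPS-BAFF-TGFβ, against 9.08 to 38.0 CPM and 15.3 to 80.1 CPM in the other mice. *Lyz2* reached 94.0 and 278 CPM in that mouse, and *Ly6g* was at 0 in 11 of the 12 libraries. The 6 T cell markers summed to at most 19.4 CPM and the 4 NK cell markers to at most 2.31 CPM. Other markers differed between the cultures in every mouse: the B cell markers summed to 7253 to 9585 CPM with LPS-IL-4 and 4912 to 5594 CPM with LPS-BAFF-TGFβ, the 4 plasma cell markers to 335 to 492 and 106 to 153 CPM, and the 5 dendritic cell markers to 21.7 to 32.8 and 72.6 to 140.4 CPM, mostly from *Flt3*, while *Clec9a* was at 0 in every library. Some sums also differed without overlap between genotypes. With LPS-IL-4 the B cell markers summed to 8822 to 9585 CPM in Pdap1-deficient and 7253 to 7770 CPM in control cells, and the plasma cell markers to 387 to 492 and 335 to 376 CPM. With LPS-BAFF-TGFβ the dendritic cell markers summed to 72.6 to 110 CPM in Pdap1-deficient and 123 to 140.4 CPM in control cells, and 3 erythroid markers to 10.97 to 19.8 and 8.85 to 10.2 CPM. The part of any marker in the results below was not tested. In bulk RNA fewer cells of a type and less RNA per cell cannot be told apart.

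**Figure D1:**
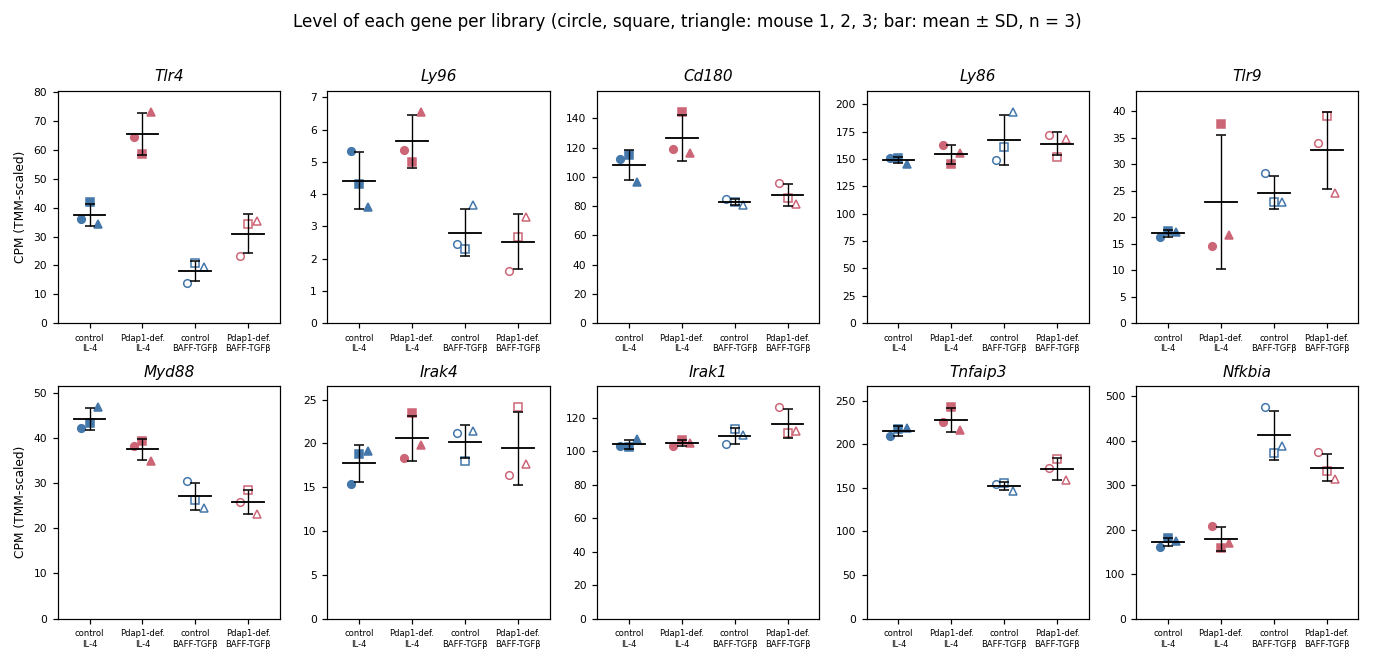
Level of each of the 10 genes in CPM (vertical axes, from 0) in the 12 libraries, by genotype and culture; symbols are single libraries (circle, square and triangle for mouse 1, 2 and 3), horizontal lines group means and vertical bars ± SD (n = 3). *Tlr4* stood highest in the Pdap1-deficient LPS-IL-4 libraries (58.7 to 73.3 CPM), and *Nfkbia* with LPS-BAFF-TGFβ lay at 313 CPM or above, against at most 209 CPM with LPS-IL-4.

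Compared per length, as CPM per kb of annotated exon, the level of *Nfkbia* was the highest of the 10 and those of *Irak4*, *Ly96*, *Tlr9* and *Tlr4* the lowest. In control cells with LPS-IL-4 the mean level was 107 ± 6.2 CPM per kb (SD, n = 3) for *Nfkbia*, 41.0 ± 0.784 for *Ly86*, 29.8 ± 0.736 for *Tnfaip3*, 23.9 ± 2.24 for *Cd180* and 22.1 ± 0.569 for *Irak1*. The ranges of *Cd180* and *Irak1* overlapped. *Myd88* followed at 17.1 ± 0.945, *Tlr4* at 6.74 ± 0.692, *Tlr9* at 4.87 ± 0.181, *Ly96* at 4.33 ± 0.867 and *Irak4* at 3.53 ± 0.419 CPM per kb. The ranges of *Ly96* overlapped those of *Tlr9* and of *Irak4*. With LPS-BAFF-TGFβ the order in control cells was *Nfkbia* (256 ± 34.5), *Ly86* (46.2 ± 6.31), *Irak1* (23.1 ± 0.966), *Tnfaip3* (21.1 ± 0.667), *Cd180* (18.4 ± 0.449), *Myd88* (10.5 ± 1.17), *Tlr9* (7.08 ± 0.897), *Irak4* (4.03 ± 0.381), *Tlr4* (3.25 ± 0.64) and *Ly96* (2.75 ± 0.72), with overlapping ranges for *Irak4* and *Tlr4* and for *Tlr4* and *Ly96*. *Tlr4* thus stood seventh with LPS-IL-4 and ninth with LPS-BAFF-TGFβ.

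**Figure D2:**
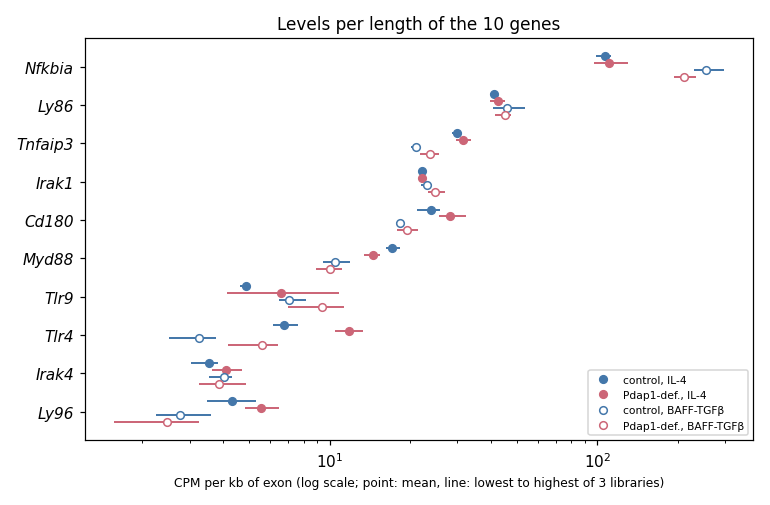
Level per length of the 10 genes (horizontal axis, CPM per kb of exon, log scale) by group; points are means and lines run from the lowest to the highest of 3 libraries. *Nfkbia* lies between 97.9 and 295 CPM per kb in all libraries and *Ly86* between 40.0 and 53.2, while mean *Tlr4* runs from 3.25 CPM per kb in control cells with LPS-BAFF-TGFβ to 11.8 in Pdap1-deficient cells with LPS-IL-4.

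To describe how these genes differ with the added cytokines, the cultures of each genotype were compared. No culture held LPS alone, so the parts of IL-4 and of BAFF plus TGFβ cannot be told apart. The study also reports faster proliferation with LPS-BAFF-TGFβ, and its part in these differences was not tested. With LPS-BAFF-TGFβ, *Nfkbia* was higher and *Tlr4*, *Cd180*, *Myd88* and *Tnfaip3* were lower than with LPS-IL-4 in both genotypes. In control cells 6 of the 10 genes passed the test (adjusted p under 0.05, edgeR), 2 higher and 4 lower, where 19.3% of the 14882 genes tested did (9.99% higher and 9.33% lower). In Pdap1-deficient cells 6 of 10 passed, 1 higher and 5 lower, where 11.5% of 14617 genes did (5.57% higher and 5.89% lower), and 5 of the 10 passed in both genotypes. How many of all genes passed in both was not counted. The cultures did not overlap for 6 of 10 in control and 7 of 10 in Pdap1-deficient cells, against 37.8% and 29.1% of all genes tested. The median log2 fold change of the 10 was −0.157 and −0.248, against 0.029 and −0.0025 over all genes tested. In 7 of the 10, all 6 mice differed in one direction, which held for 30.4% of 15794 genes. As the 10 genes were chosen with earlier results of these data known, these shares describe them and are not a test of the set.

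*Tlr4* (chr4:66827584-66930284, GRCm38, gene positions from GENCODE), the signalling receptor for LPS, measured 36.1, 41.8 and 34.5 CPM with LPS-IL-4 and 14.05, 20.8 and 19.4 CPM with LPS-BAFF-TGFβ in control mice 1 to 3. In Pdap1-deficient mice it measured 64.4, 58.7 and 73.3 CPM with LPS-IL-4 and 23.4, 34.5 and 35.3 CPM with LPS-BAFF-TGFβ. The cultures did not overlap in either genotype, and a mouse's level with LPS-BAFF-TGFβ was 36.3% to 58.8% of its level with LPS-IL-4. *Tlr4* changed by a log2 fold of −1.07 ± 0.17 (SE) in control cells (adjusted p = 0.00356) and −1.07 ± 0.17 in Pdap1-deficient cells (adjusted p = 0.00274), and both calls held with each library left out.

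*Ly96* (chr1:16688051-16709611), which encodes the LPS-binding partner of TLR4, was the least counted of the 10, with 10 to 82 counts in the 11 shallower libraries. It measured 5.35, 4.32 and 3.59 CPM with LPS-IL-4 and 2.46, 2.31 and 3.65 CPM with LPS-BAFF-TGFβ in control mice, and these overlapped. In Pdap1-deficient mice it measured 5.37, 4.99 and 6.56 CPM with LPS-IL-4 and 1.61, 2.68 and 3.28 CPM with LPS-BAFF-TGFβ, with no overlap. For *Ly96* the log2 fold change was −0.68 ± 0.27 in control cells (adjusted p = 0.124) and −1.13 ± 0.31 in Pdap1-deficient cells (adjusted p = 0.0425). With the mouse as a block the adjusted p in Pdap1-deficient cells was 0.00466. The call was lost with DESeq2 (adjusted p = 0.0574), after thinning all libraries to the smallest (0.126) and without mouse 1 (adjusted p = 0.0926) or mouse 3 (0.163) of LPS-IL-4, or mouse 1 (0.158), mouse 2 (0.0876) or mouse 3 (0.0593) of LPS-BAFF-TGFβ.

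*Cd180* (chr13:102693558-102739629), the LPS-related receptor RP105, measured 112, 115 and 96.4 CPM with LPS-IL-4 and 84.9, 82.5 and 80.9 CPM with LPS-BAFF-TGFβ in control mice. In Pdap1-deficient mice the values were 119, 145 and 116 CPM with LPS-IL-4 and 95.6, 85.5 and 81.2 CPM with LPS-BAFF-TGFβ. All LPS-BAFF-TGFβ libraries lay below all LPS-IL-4 libraries of their genotype. *Cd180* changed by −0.38 ± 0.095 on the log2 scale in control cells (adjusted p = 0.026) and −0.53 ± 0.12 in Pdap1-deficient cells (adjusted p = 0.0198). With the mouse as a block, which pairs the cultures of a mouse, the adjusted p in control cells was 0.0678. The control call was also lost without mouse 1 (adjusted p = 0.127) or mouse 2 (0.121) of LPS-IL-4, or mouse 2 (0.0617) or mouse 3 (0.0915) of LPS-BAFF-TGFβ, and the Pdap1-deficient call without mouse 1 (0.0525), mouse 2 (0.0616) or mouse 3 (0.094) of LPS-BAFF-TGFβ. Its exons share 182 bases, 4.04% of their length, with *Mast4* on the other strand, and whether counting used the strand is not stated.

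*Ly86* (chr13:37345208-37419036), the partner of RP105, measured 146 to 151 CPM in control and 145 to 163 CPM in Pdap1-deficient cells with LPS-IL-4, and 149 to 193 and 152 to 172 CPM with LPS-BAFF-TGFβ. Its groups overlapped in each comparison. *Ly86* differed between cultures by a log2 fold of 0.17 (95% confidence interval −0.085 to 0.43, adjusted p = 0.339) in control and 0.09 (−0.13 to 0.31, adjusted p = 0.663) in Pdap1-deficient cells. Without the deepest library, LPS-BAFF-TGFβ control mouse 1, the former was 0.26 with an adjusted p of 0.0168. Within a library, *Cd180* per length was 0.533 to 0.801 times *Ly86* with LPS-IL-4 and 0.337 to 0.459 times with LPS-BAFF-TGFβ.

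*Tlr9* (chr9:106222598-106226883), the receptor for CpG DNA, measured 16.2, 17.4 and 17.3 CPM with LPS-IL-4 and 28.2, 22.9 and 22.8 CPM with LPS-BAFF-TGFβ in control mice, without overlap. In Pdap1-deficient mice it measured 14.5, 37.5 and 16.7 CPM with LPS-IL-4 and 34.0, 39.0 and 24.6 CPM with LPS-BAFF-TGFβ. Mouse 2, in which the myeloid markers were highest, had the highest *Tlr9* level in both cultures. The log2 fold change was 0.55 ± 0.13 in control cells (adjusted p = 0.0212) and 0.50 ± 0.42 in Pdap1-deficient cells (adjusted p = 0.566). Without the LPS-IL-4 library of Pdap1-deficient mouse 2 the latter was 1.06 (adjusted p = 0.0021), and with both libraries of that mouse left out 0.91 (adjusted p = 0.00431). The part of the myeloid markers in the *Tlr9* level of mouse 2 was not tested. The control call was lost with the mouse as a block (adjusted p = 0.0705), with all 12 libraries in one fit (0.264), and without mouse 1 (0.108), mouse 2 (0.0821) or mouse 3 (0.0773) of LPS-IL-4.

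*Myd88* (chr9:119335934-119341411), the adaptor that joins TLR4 and TLR9 to the IRAK kinases, measured 42.1, 43.4 and 46.8 CPM with LPS-IL-4 and 30.3, 26.3 and 24.5 CPM with LPS-BAFF-TGFβ in control mice. In Pdap1-deficient mice it measured 38.1, 39.3 and 34.9 CPM with LPS-IL-4 and 25.8, 28.5 and 23.2 CPM with LPS-BAFF-TGFβ. Each mouse was lower with LPS-BAFF-TGFβ, at 52.3% to 72.4% of its LPS-IL-4 level. *Myd88* changed by a log2 fold of −0.70 ± 0.11 in control cells (adjusted p = 0.00371), a call that held with each library left out, and −0.54 ± 0.13 in Pdap1-deficient cells (adjusted p = 0.0234). The latter call was lost without mouse 1 (adjusted p = 0.0678) or mouse 3 (0.055) of LPS-IL-4, or mouse 1 (0.112) or mouse 3 (0.111) of LPS-BAFF-TGFβ. *Myd88* exons share 290 bases, 11.3% of their length, with *Acaa1a* on the other strand.

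The kinase genes passed the test in neither genotype. *Irak4* (chr15:94543643-94581815), the first kinase recruited by MyD88, measured 15.3 to 23.5 CPM with LPS-IL-4 and 16.5 to 24.2 CPM with LPS-BAFF-TGFβ, and its log2 fold change was 0.19 (95% confidence interval −0.13 to 0.52, adjusted p = 0.399) in control and −0.087 (−0.49 to 0.32, adjusted p = 0.835) in Pdap1-deficient cells. *Irak1* (chrX:74013914-74023918), the kinase that IRAK4 phosphorylates, measured 102 to 107 CPM with LPS-IL-4 and 104 to 126 CPM with LPS-BAFF-TGFβ. It was higher with LPS-BAFF-TGFβ in 6 of 6 mice, but by a log2 fold change of 0.068 (−0.12 to 0.25, adjusted p = 0.62) and 0.15 (−0.068 to 0.37, adjusted p = 0.412). *Irak4* exons share 395 bases, 7.87% of their length, with *Twf1* on the other strand.

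*Nfkbia* (chr12:55489410-55492647), which encodes the inhibitor that holds NF-κB in the cytoplasm, measured 161, 180.3 and 175 CPM with LPS-IL-4 and 475, 372 and 388 CPM with LPS-BAFF-TGFβ in control mice. In Pdap1-deficient mice it measured 209, 158 and 169.7 CPM with LPS-IL-4 and 374, 331 and 313 CPM with LPS-BAFF-TGFβ. It was higher with LPS-BAFF-TGFβ in 6 of 6 mice, with no overlap. The log2 fold change was 1.26 ± 0.11 in control cells (adjusted p = 0.000144) and 0.93 ± 0.13 in Pdap1-deficient cells (adjusted p = 0.00148), and both calls held with each library left out.

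*Tnfaip3* (chr10:19000910-19015657), which encodes the ubiquitin-editing enzyme A20, went the other way. It measured 209, 218 and 219 CPM with LPS-IL-4 and 154, 156 and 147 CPM with LPS-BAFF-TGFβ in control mice. In Pdap1-deficient mice it measured 226, 243 and 216 CPM with LPS-IL-4 and 172, 184 and 159 CPM with LPS-BAFF-TGFβ. Every mouse was lower with LPS-BAFF-TGFβ, and the cultures did not overlap in either genotype. *Tnfaip3* changed by a log2 fold of −0.50 ± 0.079 in control cells (adjusted p = 0.00308), which held with each library left out, and −0.41 ± 0.10 in Pdap1-deficient cells (adjusted p = 0.0311). The latter call was lost without mouse 1 (adjusted p = 0.0775) or mouse 3 (0.0733) of LPS-IL-4, or mouse 1 (0.162) or mouse 3 (0.156) of LPS-BAFF-TGFβ. Within a library, *Nfkbia* per length was 2.91 to 4.15 times *Tnfaip3* with LPS-IL-4 and 8.09 to 13.8 times with LPS-BAFF-TGFβ. Both stretches printed above hold the motif, whose form was chosen after they had been read.

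**Figure D3:**
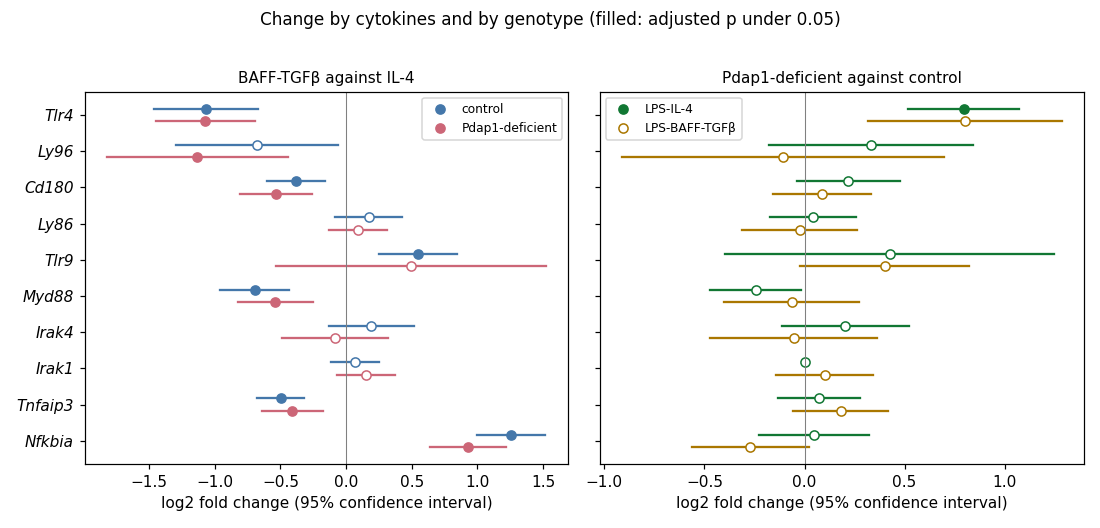
Log2 fold changes with 95% confidence intervals for the 10 genes, for LPS-BAFF-TGFβ against LPS-IL-4 (left) and for Pdap1-deficient against control cells (right); filled points passed an adjusted p under 0.05, and no interval could be computed for *Irak1* by genotype with LPS-IL-4. *Nfkbia* lies on the right and *Tlr4*, *Cd180*, *Myd88* and *Tnfaip3* on the left of 0 in both genotypes, and *Tlr4* with LPS-IL-4 is the one filled point by genotype.

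Genotypes were compared within each culture to see whether loss of Pdap1 bears on these genes. With LPS-IL-4, *Tlr4* was higher in Pdap1-deficient cells, at 65.5 ± 7.36 CPM (SD, n = 3) against 37.5 ± 3.84 CPM in control cells, and it was the 1 gene of the 10 that passed the test (log2 fold change 0.79 ± 0.13, adjusted p = 0.00875), where 4.92% of 15074 genes did. The call was lost without control mouse 1 (0.75, adjusted p = 0.0755), control mouse 3 (0.72, adjusted p = 0.082) or Pdap1-deficient mouse 3 (0.70, adjusted p = 0.0509). Without Pdap1-deficient mouse 2, which had the most myeloid marker counts and the lowest *Tlr4* of its group, it was 0.88 (adjusted p = 0.000173). The summed B cell and plasma cell markers were also higher in every Pdap1-deficient library of this culture, and their part in the *Tlr4* level was not tested. With LPS-BAFF-TGFβ the *Tlr4* level was 31.1 ± 6.65 CPM in Pdap1-deficient and 18.1 ± 3.56 CPM in control cells, again without overlap, and the log2 fold change was 0.80 ± 0.22 (adjusted p = 0.26). The Pdap1-deficient library with the lowest *Tlr4* there, that of mouse 1 (23.4 CPM), had the lowest sum of myeloid markers (15.3 CPM). The part of the myeloid markers in the *Tlr4* level was not tested. By edgeR 0 of the 10 passed there, where 0.462% of 14079 genes did. At an unadjusted p under 0.05 were 1 of the 10, *Tlr4*, and 1486 of the 14079 genes. By DESeq2 0 of the 10 passed either, where 0.983% of 17490 genes did.

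The other 9 genes did not pass by genotype in either culture. *Myd88* was lower in every Pdap1-deficient than in every control library with LPS-IL-4, at 37.5 ± 2.29 against 44.1 ± 2.43 CPM (log2 fold change −0.24 ± 0.10, adjusted p = 0.185), and overlapped with LPS-BAFF-TGFβ (−0.064 ± 0.15, adjusted p = 0.888). *Cd180* was higher in every Pdap1-deficient library with LPS-IL-4 (0.22 ± 0.12, adjusted p = 0.277). Groups without overlap numbered 3 of 10 with LPS-IL-4 and 2 of 10 with LPS-BAFF-TGFβ, against 31.7% and 18.6% of all genes tested. For *Tlr9* the log2 fold change with LPS-IL-4 was 0.43 ± 0.34 (adjusted p = 0.501) and turned to −0.12 (adjusted p = 0.646) without Pdap1-deficient mouse 2; with LPS-BAFF-TGFβ it was 0.40 ± 0.19 (adjusted p = 0.492). *Nfkbia* overlapped between genotypes in both cultures, at 0.046 ± 0.12 (adjusted p = 0.857) with LPS-IL-4 and −0.27 ± 0.13 (adjusted p = 0.497) with LPS-BAFF-TGFβ. Every Pdap1-deficient library was above every control library for *Tnfaip3* with LPS-BAFF-TGFβ (0.18 ± 0.11, adjusted p = 0.546). Within a library, *Tlr4* per length was 0.974 to 1.78 times *Ly96* in control and 1.98 to 2.66 times in Pdap1-deficient cells, a ratio that rests on few *Ly96* counts.

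Whether the genotypes differed in their change between cultures was tested as an interaction over the 12 libraries. By edgeR 0 of the 10 genes passed and 0% of the 15794 genes tested, with 0 of the 10 and 755 of all genes at an unadjusted p under 0.05. By DESeq2 6 genes passed, or 0.019%, of which 0 were among the 10. The interval of the difference in log2 fold change was −0.56 to 0.55 for *Tlr4*, −0.72 to 0.053 for *Nfkbia* and −0.20 to 0.52 for *Myd88*.

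The other genes of the pathway were followed through 9 lists with 88 genes that are not among the 10. The lists were also chosen with earlier results of these data known, so their shares are a description. Between the cultures 32 of 79 tested passed in control cells, 13 higher and 19 lower, and 24 of 81 in Pdap1-deficient cells, 12 higher and 12 lower, which are 40.5% and 29.6% beside the 19.3% and 11.5% of all genes. With the mouse as a block 27 passed in control and 41 in Pdap1-deficient cells, where 13.4% and 26.4% of all genes did. With 1 library left out the count in control cells was 23 to 47, and 47 was that without the deepest library. In Pdap1-deficient cells it was 13 to 26, and 13 was that without mouse 1 or mouse 3 of LPS-BAFF-TGFβ. Over all genes, 4858 of 15299 passed in control cells without the deepest library. In Pdap1-deficient cells 908 of 15533 passed without that library of mouse 1 and 959 of 15454 without that of mouse 3. Of the other pathway genes 21 passed in both genotypes, each in one direction. Both comparisons set the same cultures against each other, and the share of all genes passing in both was not counted.

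Among the other Toll-like receptors, *Tlr2*, which senses bacterial lipopeptides, was higher and *Tlr7*, which senses single-stranded RNA, was lower with LPS-BAFF-TGFβ. *Tlr2* measured 3.62 to 4.12 CPM in control and 4.28 to 8.39 CPM in Pdap1-deficient cells with LPS-IL-4, and 31.6 to 44.5 and 45.2 to 63.4 CPM with LPS-BAFF-TGFβ. Its log2 fold change was 3.27 ± 0.18 in control (adjusted p = 1.06e-05) and 3.11 ± 0.27 in Pdap1-deficient cells (adjusted p = 0.000179), and both calls held with each library left out. *Tlr7* had the highest median level per length of that list over the 12 libraries (26.3 CPM per kb). With LPS-BAFF-TGFβ, *Tlr1* of the same list was higher per length. The mean of *Tlr1* was 27.25 CPM per kb in control and 31.39 in Pdap1-deficient cells, against 10.97 and 13.37 for *Tlr7*. *Tlr7* measured 137 to 245 CPM with LPS-IL-4 and 31.9 to 78.3 CPM with LPS-BAFF-TGFβ. It fell by 1.99 on the log2 scale in control (adjusted p = 4.64e-05) and by 1.91 in Pdap1-deficient cells (adjusted p = 0.0443). The latter call was lost without mouse 2 (adjusted p = 0.151) or mouse 3 (0.148) of LPS-IL-4, without mouse 3 of LPS-BAFF-TGFβ (0.156) and without both libraries of mouse 2 (0.163), and with the mouse as a block its adjusted p was 3.98e-10. *Tlr3*, which senses double-stranded RNA, fell by 2.26 in control cells (adjusted p = 0.0018) and measured −2.10 ± 0.65 on the log2 scale in Pdap1-deficient cells (adjusted p = 0.0835). It had few counts with LPS-BAFF-TGFβ, 4 to 43 in control and 2 to 12 in Pdap1-deficient libraries. *Cd14*, a co-receptor for LPS on myeloid cells, was under 1 CPM in 8 of the 12 libraries and measured 15.1 and 19.0 CPM in Pdap1-deficient mouse 2, where the myeloid markers were highest, and 1.69 and 3.87 CPM in Pdap1-deficient mouse 3.

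**Figure D4:**
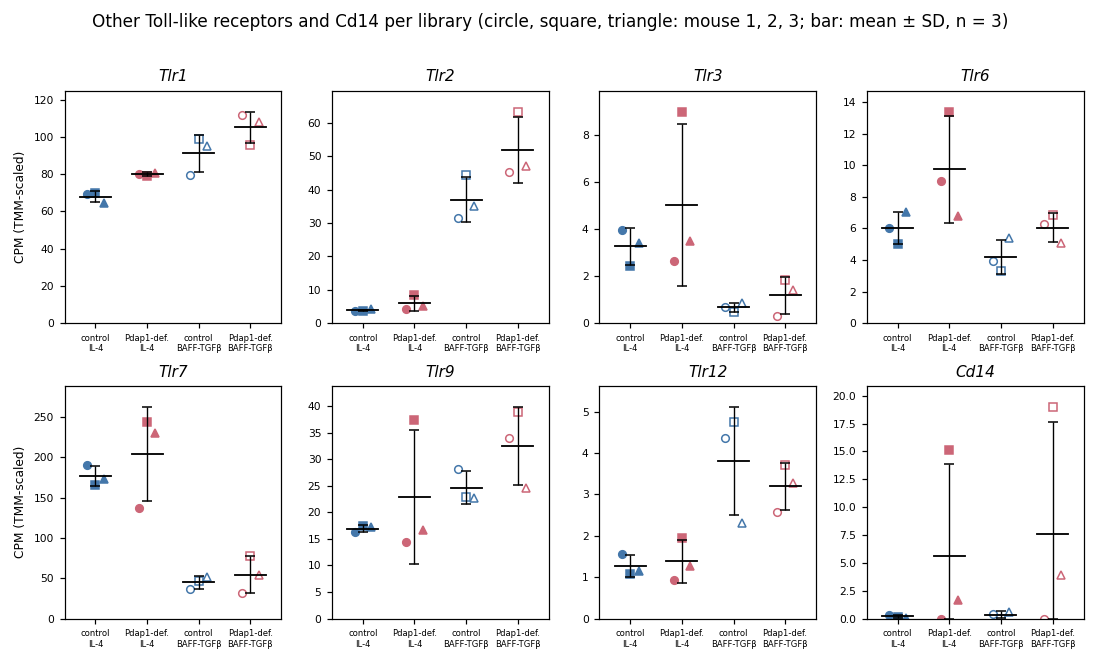
Level in CPM (vertical axes, from 0) of *Cd14* and 7 Toll-like receptor genes, *Tlr9* among them, in the 12 libraries; symbols are single libraries (circle, square and triangle for mouse 1, 2 and 3) and bars the mean ± SD (n = 3), with the lower end cut at 0. *Tlr2* is higher and *Tlr7* lower with LPS-BAFF-TGFβ in every mouse, and *Cd14* reaches 15.1 and 19.0 CPM in Pdap1-deficient mouse 2.

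*Hsp90b1*, the chaperone that folds TLRs, fell by 0.83 on the log2 scale in control cells (adjusted p = 0.000363) and by 1.09 in Pdap1-deficient cells (adjusted p = 0.000608). Downstream of the receptors, *Tirap*, the adaptor that brings MyD88 to TLR4, rose by 1.36 ± 0.14 in control cells (adjusted p = 0.000336). *Map3k8*, a kinase that links NF-κB1 to ERK, fell by 1.74 and 1.86 (adjusted p = 1.2e-05 and 2.94e-05), and *Nfkb1*, which encodes the p105 and p50 subunits of NF-κB, fell by 1.42 and 0.99 (adjusted p = 2.28e-05 and 0.000373). *Mapk3*, which encodes ERK1, rose by 1.35 and 1.15 (adjusted p = 7.7e-05 and 0.00123). These calls held with each library left out. In Pdap1-deficient cells *Tirap* rose by 0.77 ± 0.16 (adjusted p = 0.0108), a call lost without mouse 3 of LPS-BAFF-TGFβ (0.0624).

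In the list of inhibitors and NF-κB-induced feedback genes, which includes *Nfkbia* and *Tnfaip3*, 12 of 23 passed in control cells, 6 higher and 6 lower, and 10 of 23 in Pdap1-deficient cells, 6 higher and 4 lower, which are 52.2% and 43.5% beside the 19.3% and 11.5% of all genes. The latter count was 5 without mouse 1 and 6 without mouse 3 of LPS-IL-4, and 4 without mouse 1 and 5 without mouse 3 of LPS-BAFF-TGFβ. Over all genes these fits gave 1335 of 15080 and 1003 of 15049, and 908 of 15533 and 959 of 15454. *Nfkbiz*, an atypical IκB protein of the nucleus, rose by 1.66 and 1.42 (adjusted p = 7.98e-05 and 7.09e-05). *Socs1*, an inhibitor of cytokine signalling that is itself induced by cytokines, fell by 3.12 and 3.31 (adjusted p = 0.0053 and 0.00303). Its folds rest on few counts with LPS-BAFF-TGFβ, 7 to 200 in control and 4 to 15 in Pdap1-deficient libraries. *Ptpn6*, the phosphatase SHP-1, rose by 0.62 and 0.55 (adjusted p = 0.00443 and 0.00584).

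By genotype, 3 of the 79 other pathway genes tested passed with LPS-IL-4, which is 3.8% beside 4.92% of all genes. With LPS-BAFF-TGFβ 0 of 77 passed by edgeR or DESeq2. There 4 of the 77 had an unadjusted p under 0.05 by edgeR, beside 1486 of 14079 genes. By DESeq2 5 passed with LPS-IL-4, where 8.9% of all genes did. The count of 3 fell to 0 without any 1 of the control mice and to 1 without Pdap1-deficient mouse 3, and was 10 without Pdap1-deficient mouse 1 and 7 without Pdap1-deficient mouse 2. Over all genes, 69 to 91 passed without a control mouse and 163 of 15497 without Pdap1-deficient mouse 3. The count over all genes was 1759 of 15482 without Pdap1-deficient mouse 1 and 1459 of 15226 without Pdap1-deficient mouse 2. *Irak3*, which encodes an inhibitory IRAK, measured 18.04, 16.5 and 19.7 CPM in control and 33.2, 61.5 and 36.9 CPM in Pdap1-deficient cells (log2 fold change 1.27 ± 0.21, adjusted p = 0.0146), with its highest value in mouse 2. Without that library it was 0.96 (adjusted p = 0.000178), and the call was lost without control mouse 1 (0.0868), control mouse 2 (0.0981) or control mouse 3 (0.0957). *Tirap* measured 8.89, 8.9 and 9.64 CPM in control and 15.7, 14.4 and 16.3 CPM in Pdap1-deficient cells (0.75 ± 0.14, adjusted p = 0.0211), a call lost without control mouse 1 (0.115), control mouse 2 (0.132), control mouse 3 (0.0953) or Pdap1-deficient mouse 3 (0.0869). *Otulin*, a deubiquitinase of linear ubiquitin chains, measured 117, 119 and 118 CPM in control and 85.5, 77.8 and 76.0 CPM in Pdap1-deficient cells (−0.57 ± 0.10, adjusted p = 0.0124), a call lost without control mouse 1 (0.0815), control mouse 2 (0.0932), control mouse 3 (0.0777) or Pdap1-deficient mouse 3 (0.0622).

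The summed myeloid markers and the receptor genes were set side by side per library. In Pdap1-deficient mouse 2, *Tlr9* was the highest of all mice in both cultures and *Cd180* the highest with LPS-IL-4 (145 CPM), while *Tlr4* with LPS-IL-4 was the lowest of its group (58.7 CPM). With LPS-BAFF-TGFβ *Tlr4* measured 34.5 CPM in that mouse, 23.4 CPM in Pdap1-deficient mouse 1 and 35.3 CPM in Pdap1-deficient mouse 3. Of the other Pdap1-deficient mice with LPS-BAFF-TGFβ, mouse 1 had 15.3 CPM of markers and *Tlr9* at 34.0 CPM. Mouse 3 had 80.1 CPM of markers and *Tlr9* at 24.6 CPM. With LPS-IL-4, mouse 1 had 11.9 CPM of markers and *Tlr9* at 14.5 CPM, and mouse 3 had 38.0 and 16.7 CPM. The part of the markers in these levels was not tested. With both libraries of Pdap1-deficient mouse 2 left out, the change of *Tlr4* between cultures in Pdap1-deficient cells was −1.22 (adjusted p = 0.00178), that of *Cd180* −0.41 (adjusted p = 0.0195) and that of *Nfkbia* 0.86 (adjusted p = 0.000592). In that fit 7 of the 10 genes passed, where 2398 of 14515 genes did.

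**Figure D5:**
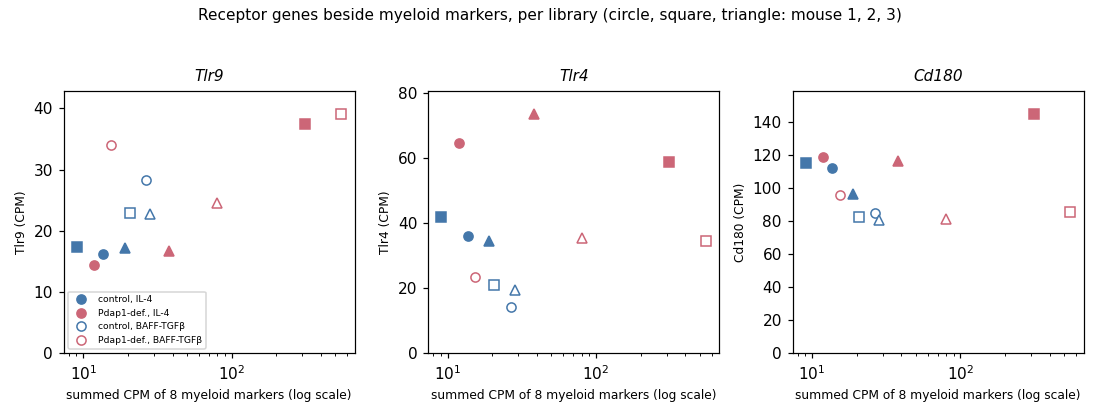
Levels of *Tlr9*, *Tlr4* and *Cd180* in CPM (vertical axes, from 0) against the summed CPM of 8 markers of monocytes, macrophages and neutrophils (horizontal axes, log scale) in the 12 libraries. The squares at 312 and 549 CPM of markers are Pdap1-deficient mouse 2, whose *Tlr9* levels are 37.5 and 39.0 CPM.

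For each of the 10 genes the 2 genes with the most similar levels were sought by Pearson's r of log2 CPM over the 12 libraries among 15794 genes. The libraries share mice and cultures, so r is given as a description. *Tlr4* was most like *C9orf72* (r = 0.976, and 0.969 over the 11 libraries without the deepest) and *Bmp2k* (0.965 and 0.952). *Myd88* was most like *H2-DMb2* (0.995 and 0.996) and *Ap1b1* (0.983 and 0.983), *Tnfaip3* most like *Klf3* (0.992 and 0.99) and *Prex1* (0.982 and 0.983), and *Nfkbia* most like *Irf2bp2* (0.984 and 0.98) and *Slc9a3r1* (0.981 and 0.978). *Tlr9* was most like *Ranbp10* (0.971 and 0.971) and *Zmiz1* (0.966 and 0.965), and *Cd180* most like *Gm43813* (0.954 and 0.953) and *Hipk2* (0.947 and 0.944). The lowest of these r values was 0.869, for *Irak4* and *Gm29050*. Between *Nfkbia* and *Tnfaip3* r was −0.927 (−0.92 without the deepest library).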

How the data were processed

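Splenic B cell cultures of 3 control and 3 Pdap1-deficient mice were profiled by RNA-seq in 12 libraries; genotype and culture were taken from the labels, and mice from the description of the series. The authors deposited raw counts per Ensembl gene, made, per the labels and methods, with Trim Galore 0.6.1, STAR 2.6 on GRCm38 and HTSeq 0.9.1. The annotation release and the strand setting of counting are not given in the sources used here. The labels name an mRNA kit and the methods a ribosome-depleted total RNA kit. A second table of counts divided by a size factor was not used. Symbols, positions and exon lengths came from GENCODE M21.

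Low counts were removed by filterByExpr and totals scaled by TMM. The test between groups was the robust quasi-likelihood test of edgeR 4.0.16 (R 4.3.3), with p-values adjusted over all genes tested by Benjamini-Hochberg and called under 0.05. All 10 genes passed the filter in each comparison. Standard errors are the log2 fold change over the root of F. With 3 mice against 3, an exact permutation test cannot go below p = 0.1. Counts in the 12 libraries totalled 4579793 to 69500640, and no library was a copy of another of its group. Libraries of different groups were not compared in this way. Log2 CPM for correlations used a prior count of 2. Steps were tested on simulated data. The alternatives run were DESeq2 1.42.0 (Wald), its size factors, other filters, each library left out, a replicate block, one fit over 12 libraries, thinning and an adjusted p under 0.01; leaving out both libraries of a mouse was added after seeing the data. Cultures of one mouse are paired by the description of the series, and deviations of the same mouse correlated at −0.181, 0.341 and −0.0228 in control and 0.579, 0.622 and 0.293 in Pdap1-deficient mice. Those of different mice correlated at −0.4075 to 0.366 in control, a range that holds the same-mouse values. In Pdap1-deficient mice they correlated at −0.5755 to 0.0124. Other genes were named by smallest adjusted p within hand-written lists. The 10 genes and the lists were chosen with earlier results of these data known. Tables were made with Python 3.11.15 and pandas 2.3.3.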

Additional observations from a re-analysis of the deposited data

How the results depend on the processing

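The numbers of genes called moved most. By genotype with LPS-IL-4 there were 741 calls, and 130 at an adjusted p under 0.01, 1217 with DESeq2, 1694 with no filter and 69 to 1759 with a library left out; with LPS-BAFF-TGFβ there were 65, and 27, 172, 257 and 19 to 116, and 133 in one fit over 12 libraries. Between cultures there were 2874 in control cells, and 1515 at an adjusted p under 0.01 and 1608 to 4858 with a library left out, and 1675 in Pdap1-deficient cells, and 853, 908 to 2235, and 3854 with the replicate block. The interaction gave 0, and 6 with DESeq2, 1 with no filter and 0 to 1 with a library left out. Among the 10 genes, calls by genotype with LPS-IL-4 numbered 0 to 1 with a library left out and, with LPS-BAFF-TGFβ, 1 with no filter (*Tlr4*, adjusted p = 0.0354). Between cultures in Pdap1-deficient cells they numbered 2 at an adjusted p under 0.01 and 2 to 7 with a library left out, 2 without mouse 1 or mouse 3 of LPS-BAFF-TGFβ. The replicate block ended the calls of *Cd180* (0.0678) and *Tlr9* (0.0705) in control cells and changed no other call of the 10. Between genotypes the replicate numbers mark no shared mouse, and the block gave 641 and 48 calls.

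Of 740 values of the 10 genes under alternatives, 668 kept direction and side of the threshold, 36 changed side and 36 changed sign, 0 of these where the value had passed. *Irak1* by genotype with LPS-IL-4 was −0.021 with DESeq2 and −0.0076 with its size factors, *Ly96* with LPS-BAFF-TGFβ 0.16 after thinning. The interaction was 0.014 and 0.0034 for *Tlr4* with DESeq2 and its size factors, and for *Tlr9* 0.067 with the replicate block, 0.36 without Pdap1-deficient mouse 2 and 0.094 without control mouse 1. With a library left out, values by genotype with LPS-IL-4 ran from −0.014 to 0.10 (*Ly86*), −0.12 to 0.66 (*Tlr9*), −0.024 to 0.0071 (*Irak1*) and −0.099 to 0.14 (*Nfkbia*); with LPS-BAFF-TGFβ from −0.38 to 0.13 (*Ly96*), −0.11 to 0.086 (*Ly86*), −0.16 to 0.020 (*Myd88*) and −0.26 to 0.050 (*Irak4*); between cultures in Pdap1-deficient cells from −0.27 to 0.034 (*Irak4*); and for the interaction from −0.18 to 0.16 (*Tlr4*), −0.17 to 0.044 (*Ly86*) and −0.30 to 0.51 (*Tlr9*). The cause was not tested. Per longest transcript *Cd180* had rank 3 in each group.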
